A study of Mus musculus with 2 samples.

Results

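The 10 genes described here were Fos, Fosb, Fosl2, Jun, Junb, Jund, Atf3, Egr1, Ier2 and Klf6, found by their exact symbols among the 32285 genes of the count tables of 2 single-nucleus RNA-seq libraries of mouse colon. They were picked because some of them were higher in the knockout library, so every difference between the libraries given for them is a description of the values that chose them and no test. The WT library came from wild-type littermates. The HIF-1α KO library came from Ncr1cre+ Hif-1αfl+/fl+ mice, in which Cre is driven by the Ncr1 (NKp46) promoter and removes HIF-1α from NKp46+ innate lymphoid and natural killer cells, not from the epithelium. Mice of both genotypes were 8 to 12 weeks old and drank 2% dextran sodium sulfate (DSS), which injures the colonic epithelium, for 3 days followed by 4 days of recovery in each of 4 cycles. Each library was a pool of 3 animals, so with 1 library per genotype there was no replicate and no p-value, and genotype, library and pool cannot be told apart.

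After the filter on nuclei (400 to 5000 detected genes and at most 10% mitochondrial counts), 4884 nuclei with 13259430 unique molecular identifiers (UMIs, counted RNA molecules) remained in the WT library and 4702 nuclei with 23605502 UMIs in the KO library. The median depth was 2058.5 UMIs per nucleus in WT and 4197 in KO, so levels are given as UMIs per 1000000 UMIs (CPM), and all intervals are 95% intervals of counting error alone. The libraries stood apart in depth and in the ribosomal-RNA-like transcripts Gm42418 (80400 CPM in WT, 27959 in KO) and AY036118 (11456 and 3694 CPM). They shared 3 cell barcodes. The deletion itself could not be checked, because Hif1a was read in all nuclei (172 CPM in WT, 199 in KO) while Ncr1, the marker of the deleted cells, had 1 UMI in WT and 0 in KO. Xist was near 0 in both libraries (0.151 and 0.169 CPM) and the Y-linked Ddx3y was at 103 and 120.1 CPM.

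AP-1 is a family of dimeric transcription factors in which a Jun protein (Jun, Junb, Jund) pairs with a Fos protein (Fos, Fosb, Fosl2) or with an ATF protein such as Atf3. Their genes, like Egr1, Ier2 and Klf6, belong to the immediate-early genes, which are transcribed within minutes of a signal from growth factors, cytokines or stress and need no new protein for it. In the intestinal epithelium they are known for their induction by wounding and inflammation. Fos, Fosb, Jun and Junb are known as quickly induced and short-lived, Jund as more constant. Atf3 is a stress-induced repressor or activator, Egr1 a zinc finger factor downstream of the ERK pathway, Ier2 a nuclear immediate-early protein and Klf6 a Krüppel-like factor.

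In GRCm38 (GENCODE M21), Jun lies at chr4:95049034-95052222 on the minus strand, Atf3 at chr1:191170296-191218039 (minus), Fosb at chr7:19302696-19310051 (minus), Fos at chr12:85473890-85477273 (plus), Jund at chr8:70698949-70700616 (plus), Junb at chr8:84974484-84978718 (minus), Ier2 at chr8:84661331-84662852 (minus), Fosl2 at chr5:32135801-32157842 (plus) and Klf6 at chr13:5861482-5870394 (plus). The 10 genes were short, with a median length of 4698.5 bases against 17403 for 21951 protein-coding genes, and Jun, Jund and Ier2 had a single annotated exon, as did 6.06% of protein-coding genes. Junos lies antisense to Jun (14.7 CPM in WT, 20.8 in KO) and Prdx2 antisense to Junb (19.3 and 21.6 CPM). Whether the counting used strand is not given in the sources used here.

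Promoters (250 bases before to 50 bases after the RefSeq start, GRCm38.p6) were matched for 8 of the 10 genes. Those of the 3 matched genes that were called higher in KO (Jun, Atf3, Fosb) and of Fos, which was not, are shown to set the start regions of both kinds side by side. They lie at chr4:95052173-95052472 (minus) for Jun, chr1:191183284-191183583 (minus) for Atf3, chr7:19309996-19310295 (minus) for Fosb and chr12:85473640-85473939 (plus) for Fos, and each is written 5′ to 3′ on its gene's strand. The RefSeq start of Atf3 lies 34706 bases inside the outermost GENCODE start of that gene. Capitals mark TGACATCA, TGACG (or CGTCA, its reverse complement) and TATAAA.
Jun: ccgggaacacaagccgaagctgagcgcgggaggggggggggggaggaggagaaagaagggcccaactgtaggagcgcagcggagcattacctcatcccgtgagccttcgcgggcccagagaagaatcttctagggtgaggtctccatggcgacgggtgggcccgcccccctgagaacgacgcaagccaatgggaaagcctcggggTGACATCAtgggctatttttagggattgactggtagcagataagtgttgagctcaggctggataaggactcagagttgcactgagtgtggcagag
Atf3: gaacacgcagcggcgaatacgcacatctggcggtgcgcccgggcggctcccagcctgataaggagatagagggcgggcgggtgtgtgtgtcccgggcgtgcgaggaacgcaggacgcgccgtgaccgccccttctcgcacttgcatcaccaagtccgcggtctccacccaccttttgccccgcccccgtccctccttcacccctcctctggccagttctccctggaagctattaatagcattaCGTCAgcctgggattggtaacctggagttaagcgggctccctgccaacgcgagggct
Fosb: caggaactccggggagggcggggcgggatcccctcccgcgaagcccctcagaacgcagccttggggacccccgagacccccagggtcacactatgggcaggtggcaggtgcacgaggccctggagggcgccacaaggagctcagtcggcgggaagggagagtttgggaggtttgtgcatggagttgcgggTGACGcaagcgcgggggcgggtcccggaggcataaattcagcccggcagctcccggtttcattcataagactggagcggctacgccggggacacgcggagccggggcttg
Fos: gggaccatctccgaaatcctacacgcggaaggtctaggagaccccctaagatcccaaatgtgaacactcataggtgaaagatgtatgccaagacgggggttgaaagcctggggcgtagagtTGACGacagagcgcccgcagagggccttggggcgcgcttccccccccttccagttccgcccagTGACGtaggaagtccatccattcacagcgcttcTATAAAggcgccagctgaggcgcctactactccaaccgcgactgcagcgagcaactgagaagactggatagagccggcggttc

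The AP-1 site TGACTCA and the cAMP response element TGACGTCA, searched on both strands, were in none of the 8 matched windows, against 5.20% and 1.79% of the 32851 promoters in the table. The variant TGACATCA stood 45 bases before the start of Jun and 119 bases before that of Klf6, and in 3.62% of all promoters. TGACG, which is part of TGACGTCA, was found in Atf3, Fosb, Junb and Fos (2 places, 129 and 66 bases before its start), and in 20.8% of all promoters. TATAAA, searched on the gene's strand alone, was found in Fos 33 bases before the start and in Junb 1 base after the start, and in 8.32% of all promoters. No window held a CArG box, the serum response factor motif, which was in 1.63% of all promoters. These matches describe letters in short windows and carry no statement on binding.

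Over all nuclei, Atf3, Jun, Fosb and Egr1 were higher in the KO library and the other 6 genes were not called in either direction. A gene was called where it had at least 50 UMIs in the libraries together, a CPM ratio of at least 1.5 and intervals that did not overlap. By this rule 11.6% of 14393 genes were called higher and 14.4% lower, and since the genes were chosen on this contrast nothing is read from 4 of 10. Atf3 was at 14.2 CPM (12.2 to 16.4) in WT and 45.8 (43.1 to 48.6) in KO, a log2 ratio of 1.69 (1.47 to 1.92). Jun was at 20.9 CPM (18.5 to 23.5) in WT and 52.4 (49.5 to 55.4) in KO, a log2 ratio of 1.33 (1.14 to 1.52). Fosb, a scarce transcript with 66 UMIs in WT and 233 in KO, was at 4.98 and 9.87 CPM (log2 ratio 0.99, 0.59 to 1.40). Egr1 was at 16.2 CPM in WT and 31.0 in KO (log2 ratio 0.93, 0.71 to 1.16).

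The remaining Fos and Jun family genes were not called. Fos was at 59.5 CPM in WT and 67.1 in KO, a log2 ratio of 0.17 (0.05 to 0.30). Junb was at 62.3 and 60.7 CPM with an interval that spanned 0 (-0.16 to 0.09), and Fosl2 was at 93.4 and 120.4 CPM (0.37, 0.27 to 0.46). Jund, known as the constant member, was lower in KO, at 220.4 CPM in WT and 148 in KO, and its log2 ratio of -0.57 (-0.65 to -0.50) fell just short of the 1.5-fold limit. Ier2 was at 26.2 and 27.2 CPM (log2 ratio 0.06) and Klf6 at 127 and 137 CPM (0.12). Summed over the 10 genes the level was 645 CPM in WT and 699.8 in KO, a log2 ratio of 0.12 (0.08 to 0.16). The difference of that sum was made up of 31.6 for Atf3, 31.5 for Jun, 26.95 for Fosl2, 14.8 for Egr1, 10.52 for Klf6, 7.64 for Fos, 4.89 for Fosb, 1.07 for Ier2, -1.63 for Junb and -72.4 for Jund, in UMIs per 1000000 (KO minus WT).

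**Figure D1:**
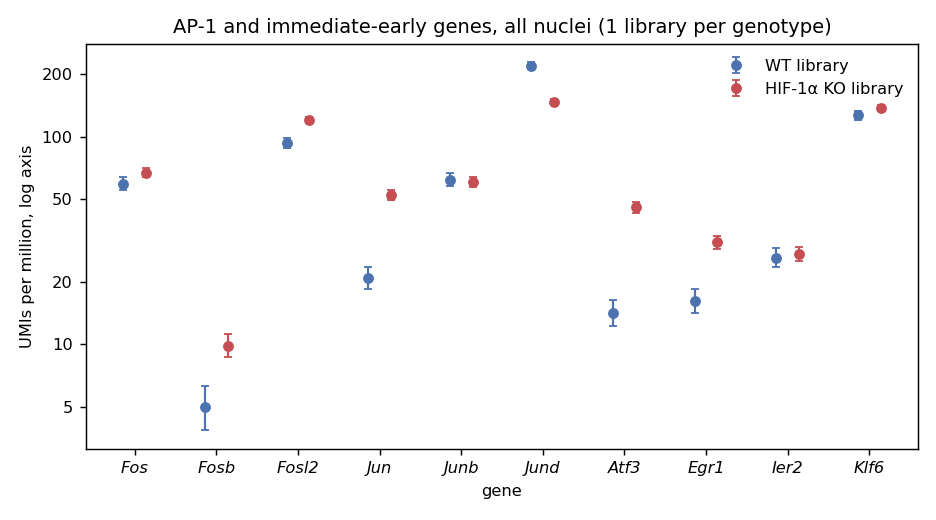
Level of each of the 10 genes over all nuclei (y axis, UMIs per 1000000 on a log axis) in the WT library (blue) and the HIF-1α KO library (red), with bars for the 95% interval of counting error. Jun, Atf3, Fosb and Egr1 sit higher in KO, Jund sits lower, at 148 against 220.4, and Junb and Ier2 overlap.

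Nuclei were grouped into classes by other genes, with the 10 genes and their related lists left out of the genes used for clustering, and a class was named only from fixed markers. There were 14 classes with at least 50 nuclei in each library. The highest levels of most of the genes lay in the surface absorptive enterocyte-like class (224 WT and 410 KO nuclei), the differentiated cells at the luminal end of the crypt axis, in which all 10 fixed markers, such as Car4, Aqp8 and Krt20, were raised. It held the highest level of 7 of the 10 genes in WT and of 9 in KO, with intervals apart from the next class for 6 and 5 of them. Atf3 was the clearest, at 82.4 CPM in surface nuclei of WT against 16.8 in goblet-like nuclei, the next class, and at 209 CPM in KO against 34.4 in cluster 0. Jun followed, at 98.3 CPM against 23.7 in fibroblast-like nuclei in WT and at 195 against 72.7 in cluster 3 in KO. For Jun, Fos, Fosl2 and Atf3 no other step between neighbouring classes in the order of levels had intervals apart, in either library.

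Ier2 departed from this order. It was highest in cycling crypt-like nuclei in WT (39.1 CPM) and in cluster 2 in KO (55.1 CPM), and the surface class ranked 6 and 9 of 14. Junb was highest in T and innate lymphoid-like nuclei in WT (187 CPM, 117 to 283), where its interval overlapped that of the surface class (131 CPM, 110.3 to 155). The T and innate lymphoid-like class was named from 4 raised markers. Its top genes included Il1b beside Skap1 and Cd247, and no class was named myeloid. Whether it also holds myeloid nuclei was not tested. Egr1 was highest in fibroblast-like nuclei in WT (34.6 CPM) and in surface nuclei in KO (78.7 CPM), with overlapping intervals to the next class both times.

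**Figure D2:**
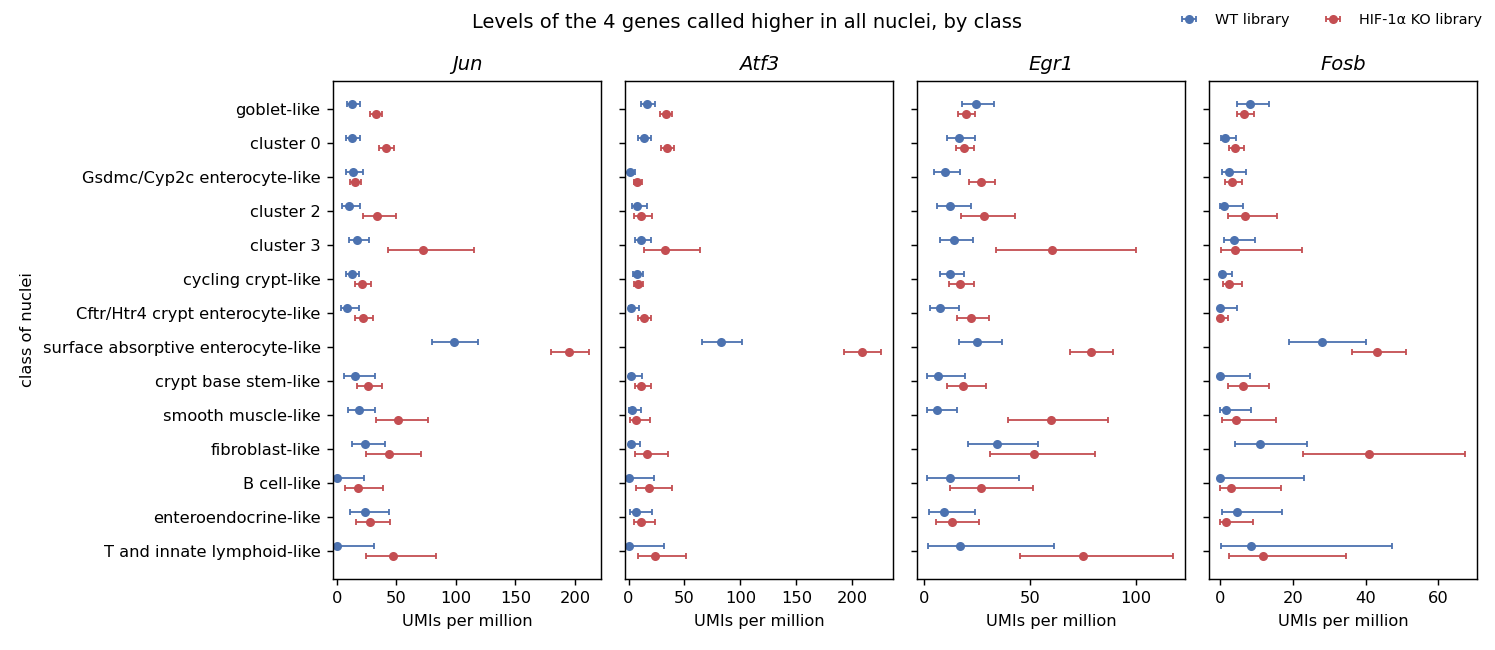
Level of Jun, Atf3, Egr1 and Fosb (x axes, UMIs per 1000000) in the 14 classes of nuclei (y axis), in the WT (blue) and KO (red) libraries, with 95% counting intervals. The surface absorptive enterocyte-like class stands out for Jun and Atf3 in both libraries and lies at 195 and 209 in KO.

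Within the surface class, Jun, Atf3 and Egr1 were higher and Jund was lower in KO, while the other 6 genes were not called. In this class 6.6% of 7168 genes were called higher and 9.42% lower. Atf3 went from 82.4 CPM (66.1 to 102) in WT to 209 (193 to 225) in KO, a log2 ratio of 1.34 (1.02 to 1.68). Jun went from 98.3 to 195 CPM (0.99, 0.69 to 1.30, and 1.61 with nuclei thinned to 1000 UMIs), and Egr1 from 25.3 to 78.7 CPM (1.64, 1.06 to 2.27) on 27 and 242 UMIs. Jund went from 785 CPM (733 to 840) to 415 (392 to 438), a log2 ratio of -0.92 (-1.05 to -0.79). Fos was at 194 and 212 CPM, Fosl2 at 238 and 269.8, Junb at 131 and 143, Klf6 at 415 and 366 and Ier2 at 28.1 and 27.96. Fosb was at 28.1 CPM in WT and 43.2 in KO with overlapping intervals, and was called higher when libraries were scaled by the median of gene ratios or by TMM, which moved all log2 ratios of this class up by 0.205 and 0.181. These scalings left the other calls of the 10 genes in the class as they were but turned the split over all its genes from 473 higher and 675 lower to 890 and 337, or 804 and 359.

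The sum of all 10 genes in surface nuclei was 2025 CPM in WT and 1959 in KO, a log2 ratio of -0.05 (-0.12 to 0.02). Within a total that differed little, Jund was lower and Jun, Atf3 and Egr1 were higher. Of the 10 surface markers only Aqp8 was called in the class (187 CPM in WT and 301 in KO), with Krt20 at 434 and 643 CPM and Emp1 at 356 and 322. Of the 9 goblet markers, 4 were also called higher in surface nuclei, namely Clca1 (86.2 and 175 CPM), Fcgbp (118 and 264), Tff3 (27.2 and 79.0) and Spink4 (52.4 and 131), while Muc2, their most abundant gene, was at 412 and 557 CPM. The median share of mitochondrial UMIs in these nuclei was 0.281% in WT and 0.954% in KO. The part of goblet RNA and of mitochondrial RNA in the result was not tested.

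To compare nuclei of like marker level, the class was split into 3 groups (lowest, middle and highest) by the summed surface markers of each nucleus. Jun was higher in KO in each group, at 74.2 and 146 CPM in the lowest, 88.8 and 160.1 in the middle and 139 and 262 in the highest. Atf3 was at 78.9 and 147 CPM, 70.4 and 193, and 99.1 and 268 in the same order, again with intervals apart in every group. Egr1 differed most in the highest group (21.7 and 116 CPM) and had overlapping intervals in the lowest (23.9 and 49.3) and middle (30.6 and 59.9) groups. Jund was lower in KO in all 3 groups, at 653 and 298, 826 and 395, and 913 and 518 CPM. Fos went the other way in the lowest group (167 and 110.0 CPM, log2 ratio -0.61, -1.07 to -0.14), and its interval spanned 0 in the other 2. The direction of Fosb also changed between groups. Its log2 ratio was -0.76 (-1.91 to 0.41) in the lowest, 0.61 (-0.31 to 1.64) in the middle and 1.71 (0.41 to 3.38) in the highest group. The last value rests on 5 UMIs in WT and 60 in KO.

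**Figure D3:**
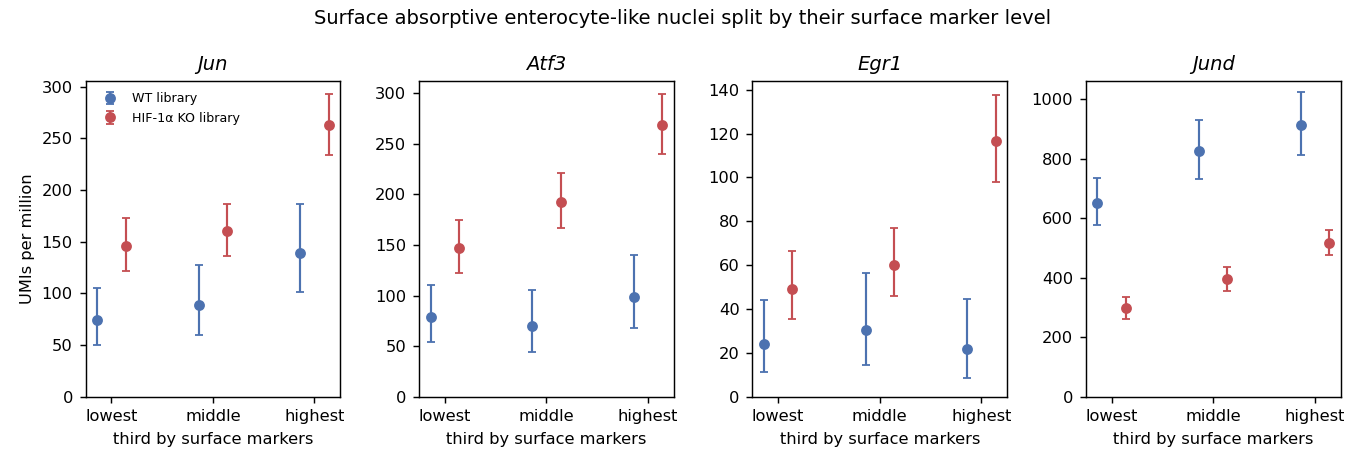
Levels of Jun, Atf3, Egr1 and Jund (y axes, UMIs per 1000000) in surface absorptive enterocyte-like nuclei split into 3 groups by their summed surface markers per 1000000 UMIs (x axes), in WT (blue) and KO (red), with 95% counting intervals. Jun and Atf3 lie higher and Jund lies lower in KO in all 3 groups, and the gap of Egr1 is widest in the highest group, at 21.7 and 116.

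Seen per nucleus, a Jun UMI was found in 31.2% of WT and 60.7% of KO surface nuclei, and an Atf3 UMI in 20.1% and 45.4%. Because the median depth of these nuclei was 4222 UMIs in WT and 6190 in KO, every nucleus was also thinned to 1000 UMIs, which kept all of them. The shares were then 7.59% (4.48 to 11.9) and 19.5% (15.8 to 23.7) for Jun and 8.93% (5.54 to 13.5) and 18.8% (15.1 to 22.9) for Atf3. Egr1 was found in 2.68% and 7.56%, and Jund in 48.7% and 32.0%. For reference, in B cell-like nuclei the thinned share of Jun was 0 of 98 nuclei in WT (interval up to 3.69%) and 2.03% of 148 in KO, with 6 shallower nuclei left out and median depths of 1464 and 1819.5 UMIs. Nuclei with 2 or more thinned UMIs were 0.893% and 5.61% for Jun and 0.446% and 5.37% for Atf3. In KO, 25.0% of the surface nuclei with a thinned Jun UMI also had an Atf3 UMI, against 17.3% of those without, and 15% against 5.76% had an Egr1 UMI. In WT, 17.6% of the nuclei with Jun had Atf3 against 8.21% of those without, on 3 nuclei with both, and none had Egr1 against 2.90% of those without. With single UMIs per nucleus these shares are sparse and are given as a description.

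Goblet-like nuclei (586 in WT, 958 in KO), which make Muc2 mucus, were split between the genes. Jun (12.98 and 32.6 CPM) and Atf3 (16.8 and 33.2 CPM) were called higher, while Fos (83.8 and 47.6 CPM) and Jund (305 and 128 CPM) were called lower, with 6.65% of 9336 genes called higher and 6.78% lower. The log2 ratios were 1.33 for Jun, 0.99 for Atf3, -0.82 for Fos and -1.25 for Jund. All 4 were also called within the cluster of goblet-like nuclei led by Clca1, Fer1l6 and Fcgbp, where Fos was at 174 CPM in WT and 75.4 in KO, Jund at 602 and 182, Jun at 23.9 and 56.2 and Atf3 at 33.1 and 70.8. In the cluster led by Slc12a8 and Spdef, Fos was at 13.9 and 31.0 CPM and Jund at 99.7 and 92.9, with no call, and Jun (5.05 and 20.2) and Atf3 (6.31 and 11.3) stayed under 50 UMIs there. In the cluster led by St6gal1, Scin and Capn9 none of the 10 genes was called either, with Jund at 102.4 and 96.6 CPM. Fos, Jun and Atf3 stayed under 50 UMIs there. The lower call of Jund thus rested on 1 of 3 clusters. For Jun and Atf3 low counts allowed no call outside the Clca1 cluster. Their log2 ratios in the Slc12a8 cluster were 2.00 (0.53 to 3.94) and 0.84 (-0.59 to 2.59), against 1.24 and 1.09 in the Clca1 cluster. Over all goblet-like nuclei Egr1 and Fosb were not called, at 24.9 and 19.9 CPM and 8.11 and 6.57 CPM.

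Cluster 0 (410 and 631 nuclei) was left unnamed and was led by Slc9a3, Tgm3 and Apol10a, genes of absorptive cells. Here 2 of 9 tested genes were higher, with 6.84% of 8489 genes called higher and 7.01% lower. Jun went from 12.9 to 41.6 CPM (log2 ratio 1.69) and Atf3 from 13.5 to 34.4 CPM (1.35), while Jund went from 227 to 116 CPM (-0.97). In Gsdmc/Cyp2c enterocyte-like nuclei (375 and 510), Egr1 was the gene called higher, at 9.88 and 27.1 CPM. Junb (63.4 and 36.1 CPM) and Jund (135 and 81.3 CPM) were called lower there, against 6.77% higher and 4.04% lower of 7991 genes. The interval of Jun spanned 0 in these enterocytes (log2 ratio 0.13, -0.71 to 1.03).

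Jund was thus lower in KO in the surface, goblet-like, cluster 0 and Gsdmc/Cyp2c classes, the 4 classes in which it was called lower of the 14 in which it reached 50 UMIs. It was called higher in cluster 3, at 187 and 364 CPM. That cluster was unnamed, led by AY036118, Gpx2 and Igkc, of low depth, and came mostly from the WT library (713 WT and 99 KO nuclei). Junb (64.4 and 121 CPM) and Klf6 (118 and 214 CPM) were called higher there too, against 8.45% of 4890 genes called higher and 4.19% lower. With median-of-ratios scaling Jund and Klf6 kept the call and with TMM Jund alone did, and the share of called genes that were higher went from 66.8% to 43.2% and 41.5%. In cluster 0 that share went from 49.4% to 62.3% and 61.7%, with the same 3 genes called.

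**Figure D4:**
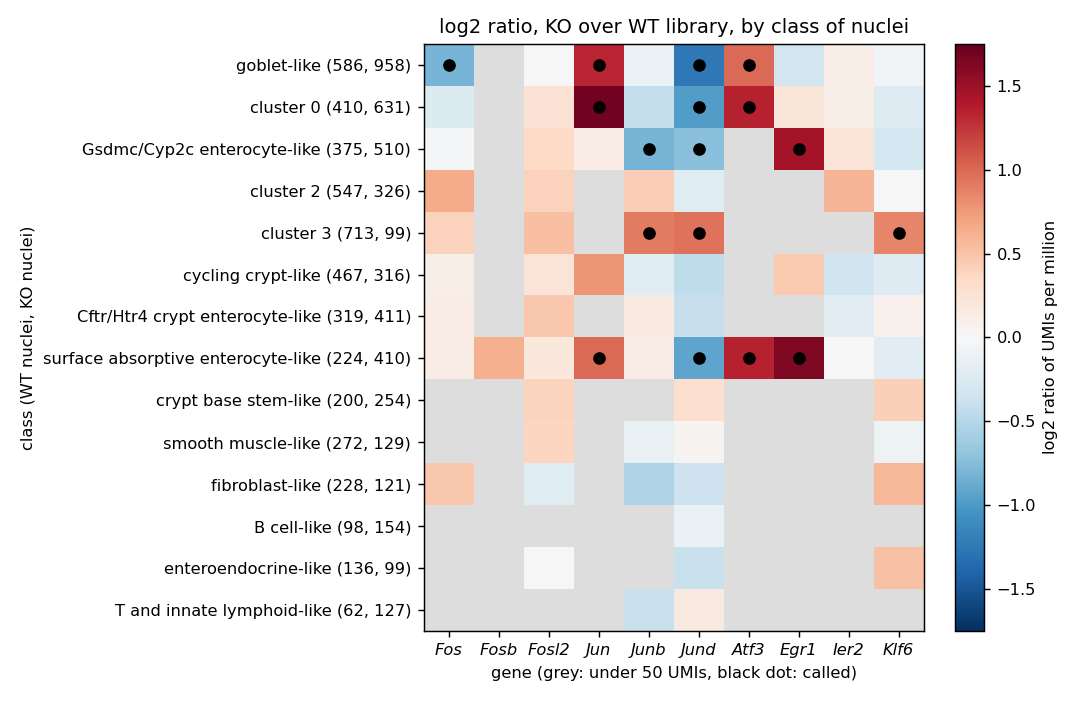
Log2 ratio of the KO over the WT library (colour) for each of the 10 genes (x axis) in the 14 classes of nuclei (y axis, with the nuclei of each library). Grey marks fewer than 50 UMIs and a black dot a called gene. Calls fall in the goblet-like, surface, Gsdmc/Cyp2c and unnamed clusters 0 and 3.

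None of the 10 genes was called in cluster 2, cycling crypt-like, Cftr/Htr4 crypt enterocyte-like, crypt base stem-like, smooth muscle-like, fibroblast-like, B cell-like, enteroendocrine-like or T and innate lymphoid-like nuclei, where 6, 8, 6, 3, 4, 5, 1, 3 and 2 of them reached 50 UMIs in that order. The shares of genes called higher there were 12%, 8.2%, 7.58%, 9.78%, 5.94%, 4.5%, 7.07%, 3.81% and 8.74% in that order, and the shares called lower were 3.23%, 4.09%, 3.91%, 3.28%, 3.11%, 2.32%, 1.09%, 2.34% and 3.35%. Some genes with low counts, which could not be called, had higher values in KO. In smooth muscle-like nuclei (272 and 129) Egr1 had 4 UMIs in WT and 28 in KO, or 6.10 and 59.96 CPM, a log2 ratio of 3.30 (1.78 to 5.27). Fosb in fibroblast-like nuclei had 6 and 15 UMIs (10.9 and 40.9 CPM, 1.90, 0.46 to 3.56). Jun in T and innate lymphoid-like nuclei had 0 UMIs of 117493 in WT and 12 of 252644 in KO. The interval of its log2 ratio began at 0.37, while the intervals of the levels overlapped, reaching 31.4 CPM in WT and starting at 24.5 in KO.

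Summed, the 4 genes called over all nuclei had a higher CPM in KO in 14 of 14 classes, and the interval of the ratio lay above 0 in 13 of them, the exception being enteroendocrine-like nuclei (44.9 and 54.2 CPM). Since the 4 were chosen for their higher level over all nuclei, this direction is partly fixed by the choice. Outside the 14 classes, the small unnamed cluster 20 went the other way (180 and 45.1 CPM on 9 and 8 UMIs, log2 ratio -2.00, -3.57 to -0.45). The remaining small classes had a higher CPM in KO, by little in enteric neuron and glia-like nuclei (44.6 and 45.3 CPM). By gene, Jun and Atf3 had the higher value in KO in all 14 classes, Egr1 in 13 and Fosb in 11, and the interval lay above 0 in 8, 7, 7 and 2 of them. Of the genes not called over all nuclei, Fosl2 was higher in 12 classes, Ier2 in 10, Fos in 9, Klf6 in 6, Junb in 5 and Jund in 4. The median log2 ratio of all tested genes was itself above 0 in most classes, such as 0.24 in cluster 2, and was -0.09 in surface nuclei. Nothing is read from these counts of classes. Summed over all 10 genes the CPM was higher in KO in 8 classes and lower in 6.

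RNA that leaks from broken cells is captured with nuclei of every class, so the levels outside the surface class were set beside those of the surface markers. The summed level of the 10 surface markers in the other 13 classes was between 11.4% and 47.0% of that in surface nuclei in WT (median 14.7%) and between 12.2% and 53.6% in KO (median 18.3%), highest in cluster 0. If a gene of surface nuclei were present elsewhere in the same proportion, Atf3 in KO would be at 42.8 CPM in goblet-like nuclei, where it was at 33.2. The measured Atf3 level was at or below this proportion in 12 of 13 classes in WT and 13 of 13 in KO, and that of Jun in 8 and 10. A level at or below it is not read as expression in that class, and the goblet-like and cluster 0 values of Jun and Atf3 in KO lay below it. Cluster 0 was led by genes of absorptive cells and may make surface markers itself. For that class the proportion therefore cannot tell leaked RNA from expression. The part of free RNA in these differences was not tested. Jun lay above it in smooth muscle-like nuclei of KO (51.4 CPM, 32.9 to 76.5, against 29.0). In fibroblast-like (43.6, 24.9 to 70.8, against 32.3) and T and innate lymphoid-like nuclei (47.5, 24.5 to 83.0, against 42.2) its counting interval held the level in proportion. The counts of classes above or below that level use the point values alone. Egr1 was different, above the proportion in 13 of 13 classes in WT and in 12 in KO. Ier2 was above it in all 13 in both libraries, and Junb in 13 and 12.

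**Figure D5:**
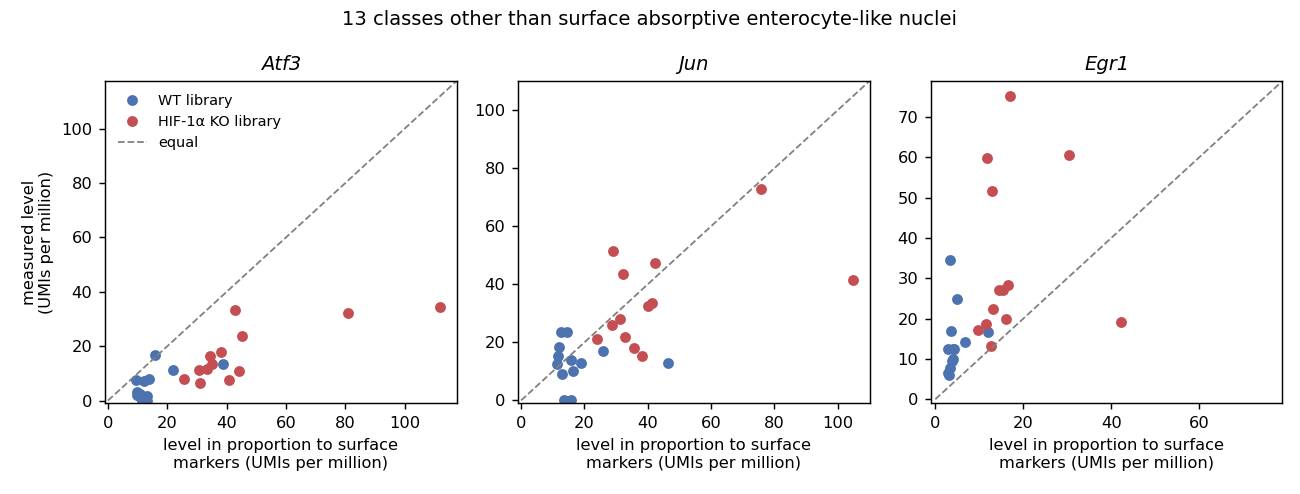
Measured level of Atf3, Jun and Egr1 (y axes, UMIs per 1000000) in the 13 classes other than surface absorptive enterocyte-like nuclei against the level that the share of surface markers in each class would carry along (x axes, UMIs per 1000000), in WT (blue) and KO (red). The dashed line marks equality. Atf3 points of KO lie below the line in 13 of 13 classes, while most Egr1 points lie above it.

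Split by class, the surface nuclei held most of the difference of Atf3, Jun, Fosb and Egr1 when level and share of UMIs were counted together. They had 8.05% of the UMIs of the WT library and 13.03% of those of KO. Of the difference in Atf3 over all nuclei, 31.6 UMIs per 1000000, surface nuclei held 20.6 (65.0%), of which 13.3 came from their higher level and 7.25 from their larger share. For Jun they held 17.5 of 31.5 (55.7%), for Fosb 3.37 of 4.89 (68.9%) and for Egr1 8.22 of 14.8 (55.7%). The parts from level and from share were 10.2 and 7.31 for Jun, 1.60 and 1.78 for Fosb and 5.63 and 2.59 for Egr1. Over all classes the part from level was 23.8 for Atf3, 27.4 for Jun, 3.61 for Fosb and 15.5 for Egr1. By level alone, surface nuclei thus held most of the difference for Atf3 only. Of the difference in Jund (-72.4) surface nuclei held -9.15, or 12.6%, made up of -39.0 from level and 29.9 from share. Over all classes the part of Jund from level was -95.1. For Junb surface nuclei added 8.12 to a total of -1.63. Of all Atf3 UMIs in the library, surface nuclei held 46.8% in WT and 59.4% in KO. For the sum of the 10 genes, surface nuclei added 92.3 per 1000000 against a difference of 55.0 in all, with -6.91 from level and 99.2 from share. The other classes together held less of the library's UMIs as these genes in KO, with level and share counted together. By level alone, 8 of the 14 classes were higher in KO. With surface nuclei left out, Jun (14.1 and 31.0 CPM), Atf3 (8.202 and 21.4) and Egr1 (15.4 and 23.8) were still called higher, Fosb (2.95 and 4.87) was not, and Jund (171 and 108.0) was called lower. In KO, Atf3 was at or below the proportion to surface markers in 13 of 13 other classes and Jun in 10. Their differences in those classes, and the parts from level, are therefore not read as expression there.

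Other genes of the pathway are set beside the 11.6% of all tested genes called higher and the 14.4% called lower over all nuclei. There, 1 of 11 tested other AP-1 subunits was higher and 2 were lower: Maff, a small Maf protein without an activation domain (5.73 and 8.64 CPM), and Jdp2 (6.49 and 3.86) and Maf (25.5 and 8.35). Of 13 tested other immediate-early transcription factors, Nr4a3 (0.830 and 2.12 CPM) and Klf10 (26.8 and 41.2) were higher and Klf2, Ier5, Csrnp1 and Npas4 lower. Of 19 feedback inhibitors, Nfkbiz, a nuclear regulator of NF-κB, was higher (95.6 and 147 CPM), and Dusp2, Dusp6, Zfp36l1, Spry4, Nab2 and Ier3 were lower. Dusp6, the phosphatase of ERK, was at 39.5 and 23.7 CPM and Nab2, the corepressor of Egr1, at 3.62 and 1.27 CPM. The median log2 ratios of these 3 lists were 0.13, -0.47 and -0.09, against -0.01 over all tested genes.

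More of the secreted and effector targets were called lower than higher. Of 21 tested secreted and effector targets, Tnf was higher (3.77 and 6.06 CPM), and the lower ones included Ccn1, Ccn2, Ereg, Ptgs2, Mmp13, Gadd45a, Phlda1 and Pim1, with a list median of -0.22. Mmp13, a collagenase, fell by 2.55 on the log2 scale (17.6 and 3.01 CPM), Ptgs2, the inducible cyclooxygenase, by 2.24 and Ereg, an EGF receptor ligand, by 2.07. These 3 were also lower within fibroblast-like nuclei, where Mmp13 was at 352 and 32.7 CPM, Ptgs2 at 184 and 57.2 and Ereg at 344 and 213, against 2.32% of 3959 genes called lower. Fibroblast-like nuclei made up 4.67% of WT and 2.57% of KO nuclei. Of 17 upstream factors and kinases, Elk1 (4.07 and 2.03 CPM) and Elk3 (log2 ratio -0.62), ETS partners of the serum response factor, were lower and none was higher. Of 11 heat-shock genes, Hsp90ab1 (153 and 87.5 CPM), Hsph1 and Hspd1 were lower and none was higher. The medians of these 2 lists were 0.06 and -0.34. None of 4 sex-linked genes or 3 nuclear RNAs was called.

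Within surface nuclei 3 targets were called higher and 3 lower, beside 6.6% and 9.42% of all tested genes. These calls use the scaling by total UMIs, under which more genes of the class were called lower than higher, and the other scalings turned that split. Cxcl1, a neutrophil-attracting chemokine (4 UMIs in WT and 48 in KO, 3.75 and 15.6 CPM), Tnf (9.37 and 24.7 CPM) and Hbegf, an EGF receptor ligand (89.0 and 160 CPM), were the higher ones of 13 tested, and Areg (140.5 and 92.0 CPM), Gadd45a and Phlda1 lower. Nfkbiz was at 125.5 CPM in WT and 289.6 in KO and Egfr at 391 and 686 CPM. Dusp6 (155 and 72.8 CPM), Zfp36l1, Spry2, Ier5, Bhlhe40, Hes1, Mafg and Elk3 were lower. In smooth muscle-like nuclei Ccn1 (32.0 and 81.4 CPM) and Dusp10 (27.5 and 70.7) were higher, against their lower or uncalled levels over all nuclei. Among the called list genes with the 3 highest ratios of each class were, besides the 10 genes, Gadd45b in goblet-like nuclei (3.24 and 9.95 CPM), Klf10 in Cftr/Htr4 crypt enterocyte-like nuclei (11.52 and 40.8) and in cycling crypt-like nuclei (19.0 and 36.8), Klf4 in crypt base stem-like nuclei (55.0 and 129) and cluster 2 (80.9 and 171), Hspa8 in Gsdmc/Cyp2c enterocyte-like nuclei (25.5 and 55.6) and Dusp1 in cluster 3 (29.3 and 76.8). The kinase Rps6ka3 was among the 3 highest of the called list genes in Gsdmc/Cyp2c enterocyte-like (489.9 and 825 CPM), Cftr/Htr4 crypt enterocyte-like, crypt base stem-like and cluster 2 nuclei. By the same count Atf2 was among them in crypt base stem-like nuclei (72.6 and 135) and cluster 2, Hspa8 and Hspe1 in cluster 3, and Map2k1 (181 and 318) in B cell-like nuclei. These calls also use total UMIs. With median-of-ratios and TMM scaling, genes called higher went from 673 to 237 and 299 in cluster 2. In cluster 3 they went from 413 to 264 and 252, and Dusp1 there rested on 31 UMIs in WT and 19 in KO. Whether these list genes kept their calls is not given here. The nuclear RNA Kcnq1ot1 was in the same ranking in B cell-like (199 and 466), T and innate lymphoid-like (204 and 384) and Cftr/Htr4 crypt enterocyte-like nuclei. This ranking takes genes called higher alone, and other list genes were called lower. In cycling crypt-like nuclei these were Hspa5, Hsp90ab1, Hsph1, Hspd1, Nfkbia and Phlda1, and only Klf10 was higher. In goblet-like nuclei Ier5, Dusp1, Dusp6, Zfp36l1, Gadd45a, Phlda1 and Hsp90ab1 were lower, and Gadd45b and Tiparp higher besides the 10 genes. In cluster 0, list genes outside the 10 were called only lower, such as Dusp6, Nfkbia, Ereg and Hsp90ab1.

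Over the 28 class-by-library profiles, 9 of the 10 genes followed their common mean, with Pearson r from 0.74 for Egr1 to 0.91 for Fos, and Ier2 stood apart at 0.27. The profiles share libraries and depth, and each gene is part of the mean. Outside the lists, the 10 genes of 11746 compared whose profile was most like this mean were Sprr2a2 (r = 0.92), Ly6a, Rhoc, Pmp22, Noct, Rdh9, 2010003K11Rik, Tspan1, Eif1 and Slc2a1 (0.89). Sprr2a2, which encodes a small proline-rich protein of barrier epithelia, was at 59.0 and 80.6 CPM in surface nuclei and at 9.88 and 25.5 CPM over all nuclei. Ly6a, known as Sca-1, was at 356 and 345 CPM in surface nuclei and at 89.9 and 99.7 CPM over all nuclei, without a call.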

How the data were processed

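Nuclei from snap-frozen colon were profiled with the 10x Genomics 3′ v3.1 chemistry. The authors deposited 1 filtered matrix of raw UMI counts per library from Cell Ranger 7.0.1 (mm10), and whether intronic reads were counted is not given in the sources used here. Nuclei were filtered as in the study, which also serves as its treatment of doublets, and no doublet caller was run. Clustering used R 4.3.3 and Seurat 5.3.0 (integration, 30 principal components, resolution 1) without the listed genes. A cluster was named from at least 3 raised markers with at least 1 among its top 10 genes. Counts were summed per library and class with Python 3.11.15, numpy 2.4.6, pandas 2.3.3 and scipy 1.17.1. Intervals are exact Poisson for levels, exact conditional binomial for ratios and Clopper-Pearson for shares, and cover counting error only. TMM factors came from edgeR 4.0.16. The call rule was checked on simulated Poisson counts with known changes, which held counting error alone. That check could not cover differences between animals, pools or libraries.

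The genes and lists were chosen with earlier results of these data known. The text names the 10 genes, listed genes called over all nuclei, the 3 highest ratios among listed genes called in a class, Hif1a and the 10 genes of most similar profile. Other genes (Egfr, Hbegf, Areg, Spry2, Bhlhe40, Hes1, Mafg, Nfkbia, Tiparp, Hspa5, surface markers, Gm42418, AY036118 and other check genes) were added after their values were seen. The sequence and position of Egr1, and 1 listed gene that the naming rule covers, are not reported here.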

Additional observations from a re-analysis of the deposited data

How the results depend on the processing

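Of the 10 genes, 4 were called higher over all nuclei in all 6 other ways of filtering, thinning, weighting or scaling, with a minimum of 20 UMIs or none, and without the clusters led by Gm42418 and AY036118 (chosen after seeing the data). With a fold of at least 2 only 2 (Jun and Atf3) remained, against 5.5% of all genes. Without surface nuclei, also chosen after seeing the data, 3 remained. Across 9 alternatives the log2 ratio over all nuclei stayed between 1.14 and 1.48 for Jun, 1.29 and 1.98 for Atf3, 0.71 and 1.35 for Fosb, 0.63 and 1.25 for Egr1 and -0.71 and -0.36 for Jund. In surface nuclei, across 10 alternatives, it ran from 0.75 to 1.61 for Jun, 1.14 to 1.58 for Atf3, 0.39 to 0.83 for Fosb, 1.08 to 1.94 for Egr1 and -1.13 to -0.72 for Jund.

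The summed log2 ratio over all nuclei was 0.22 after thinning to 1000 UMIs, 0.26 with nuclei weighted equally, 0.028 with mitochondrial genes, Malat1 and the 50 most abundant genes left out of the total, 0.072 without the Gm42418 and AY036118 clusters and -0.036 without surface nuclei. Fos then turned to -0.069, and with equal class shares, also chosen after seeing the data, Fos was at -0.019 and Klf6 at -0.082. In surface nuclei the sum was 0.13 after thinning, 0.16 with median-of-ratios scaling, 0.13 with TMM, 0.052 with nuclei weighted equally, -0.20 without integration and -0.14 with nuclei named by their own marker score, which gave B cell-like nuclei -0.012. Surface nuclei added 125 per 1000000 UMIs by their own marker score and 103 after thinning, and the gap in the share with a Jun UMI fell to 11.9 percentage points. The cause of these changes was not tested.

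No paired analysis was possible because each genotype had 1 library, and no replicate was left out for the same reason. The share of called genes that were higher moved by over 10 points with scaling (total, median-of-ratios, TMM) in cluster 2 (78.8%, 38.2%, 47.9%), fibroblast-like (65.9%, 42.3%, 38.2%), smooth muscle-like (65.6%, 54.5%, 54.4%), cycling crypt-like (66.7%, 56.7%, 55.9%), crypt base stem-like (74.9%, 67.2%, 64.1%) and B cell-like nuclei (86.6%, 78.7%, 75.0%), where none of the 10 genes was called under any of the 3. Values by class were not computed for all barcodes.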
